A study of Mus musculus with 17 samples.

Results

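The 10 genes described here mark eosinophils and the type 2 response, and they were followed in AB12 tumors of untreated and anti CTLA-4 treated mice. They are the eosinophil receptors Ccr3 and Siglecf, the eotaxins Ccl11 and Ccl24, the alarmin Il33 and its receptor Il1rl1, the receptor chains Il4ra and Il13ra1, and the secreted macrophage products Chil3 and Retnla. They were chosen by gene symbol, with their levels in these tumors already known, and all 10 were found among the 55450 genes of the count table. Adjusted p-values below therefore place a difference against the spread between tumors and are not independent evidence for the choice of genes.

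AB12 is a murine mesothelioma cell line that was injected into the peritoneum of female BALB/c mice of 8 weeks of age, and each library came from the tumor of a separate mouse. Untreated tumors were collected from 3 mice on d6, from 5 on d10 and from 3 on d14. Tumors of mice given 200 µg of anti CTLA-4 (clone 9D9) into the peritoneum were collected on d10 (n = 3) and d14 (n = 3). The d14 treated mice had received injections on d6 and d10, whereas the injection days of the d10 treated mice are not given in the sources used here, and the labels describe a course of 4 injections. No mouse without a tumor and no mouse given a control antibody was analysed here. The tumors are whole tissue, which holds AB12 cells together with host cells, so fewer cells of a type and less RNA per cell cannot be told apart in any result below.

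Type 2 immunity is the response that tissues mount to helminths, allergens and injury. Epithelial, mesothelial and stromal cells release IL-33, which acts through its receptor ST2 (Il1rl1) on innate lymphoid cells, mast cells, regulatory T cells and other cells. Some of these cells make IL-4, IL-5 and IL-13, of which IL-5 sustains eosinophils, while IL-4 and IL-13 signal through IL-4Rα and STAT6. STAT6 raises the eotaxins CCL11 and CCL24, which draw eosinophils through CCR3, and it raises Retnla (RELMα) and Chil3 (Ym1) in macrophages of the mouse.

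The libraries held between 46371577 and 96759833 counts (median 72413343), and levels are given as CPM, the share of a library's counts scaled to a common total, after TMM normalization. The libraries were divided into 3 sets by the level of 278 pseudogenes and small RNAs. A coarser division into 2 sets was also made. The first set held the d6 tumors and untreated d10 replicates 1 to 3, the second held untreated d10 replicates 4 and 5 and the treated d10 tumors, and the third held all d14 tumors. Mir6236, a small RNA that marks the sets, was between 69.2 and 191 CPM in the first set, between 2.06 and 18.2 CPM in the second and between 0.0503 and 0.26 CPM in the third. The authors sequenced on NextSeq or NovaSeq instruments, with different read lengths. Which library was run on which instrument, and whether the sets are sequencing runs, is not given in the sources used here. The comparisons within a set are d6 with untreated d10 replicates 1 to 3, treated d10 with untreated d10 replicates 4 and 5, and treated with untreated d14 tumors. With the 3 sets used here, day and library set cannot be told apart in any comparison of d14 with an earlier day. In the division into 2 sets, all d14 tumors shared a set with untreated d10 replicates 4 and 5 and the treated d10 tumors. The d6 tumors and untreated d10 replicates 1 to 3 formed the other set. The limit on comparing d14 with those d10 tumors thus depends on the number of sets chosen. The mesothelial and mesothelioma markers Msln, Wt1, Upk3b, Lrrn4, Krt8, Krt19 and Pdpn together lay between 1360 and 2953 CPM in the 17 libraries, and Msln was at least 175 CPM in each.

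The genes span a wide range of levels. Compared per kilobase of exon, Ccl24 was the highest of the 10 in the d6 tumors (mean 102 ± 24.9 CPM per kb, SD, n = 3), followed by Retnla (49.3 ± 18.2) and Il33 (46.3 ± 5.01). In untreated d14 tumors the order was led by Il33 (50.9 ± 14.0 CPM per kb), Il4ra (21.6 ± 1.30) and Il13ra1 (14.7 ± 1.58), with Retnla the ninth of the 10 at 0.282 ± 0.286. Siglecf was the lowest of the 10 in 4 of the 5 groups, and Il1rl1 was the lowest at d6. The lowest raw counts of a gene in any library were 4 for Retnla, 40 for Siglecf, 52 for Ccr3 and 116 for Ccl11, and the other genes had at least 235 counts in every library.

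**Figure D1:**
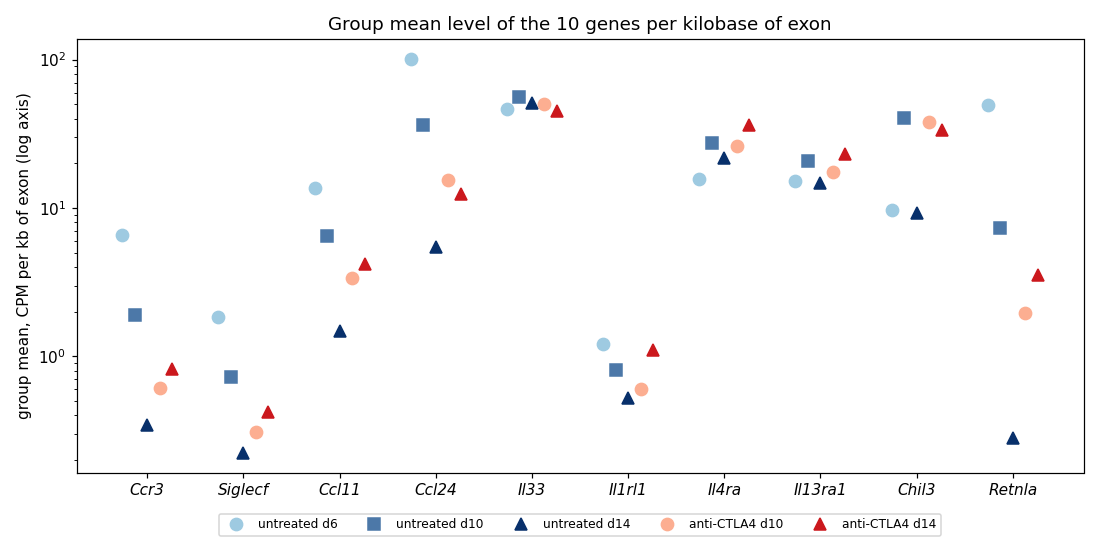
Group mean level of each of the 10 genes in CPM per kilobase of exon, on a log axis, with blue symbols for untreated and red symbols for treated tumors (n = 3 each, n = 5 for untreated d10). Ccl24, Ccl11, Ccr3, Siglecf and Retnla are highest in d6 tumors and lowest in untreated d14 tumors, whereas Il33 lies between 44.8 and 55.7 CPM per kb in all 5 groups.

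Promoter sequence is shown for the gene pairs whose members share a role, to let their sequence be read beside their levels. RefSeq (build GRCm38.p6) gives a window of 250 bases before to 50 bases after the start site for 8 of the 10 genes. Ccl11 and Ccl24 were not among them. The search covered 3 motifs on both strands, TTCNNNNGAA (bound by STAT6), TTCNNNGAA (bound by STAT proteins) and GATAA (bound by GATA factors). In the windows of the eosinophil receptors, given 5′ to 3′ on the strand of the gene, GATAA is in capitals.

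Ccr3, chr9:124021721-124022020, plus strand: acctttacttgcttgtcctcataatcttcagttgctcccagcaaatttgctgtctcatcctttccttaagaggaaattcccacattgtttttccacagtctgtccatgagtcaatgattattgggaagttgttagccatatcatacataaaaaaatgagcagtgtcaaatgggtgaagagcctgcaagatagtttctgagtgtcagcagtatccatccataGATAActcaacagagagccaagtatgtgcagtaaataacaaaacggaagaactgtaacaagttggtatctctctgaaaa

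Siglecf, chr7:43351091-43351390, plus strand: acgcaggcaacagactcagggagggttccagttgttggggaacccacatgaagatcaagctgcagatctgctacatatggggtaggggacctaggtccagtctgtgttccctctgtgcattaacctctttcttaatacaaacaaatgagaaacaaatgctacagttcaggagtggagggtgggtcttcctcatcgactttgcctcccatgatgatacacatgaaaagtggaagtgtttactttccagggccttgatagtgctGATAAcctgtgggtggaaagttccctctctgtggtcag

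In the windows of the macrophage genes, the STAT motifs are in capitals.

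Retnla, chr16:48842359-48842658, plus strand: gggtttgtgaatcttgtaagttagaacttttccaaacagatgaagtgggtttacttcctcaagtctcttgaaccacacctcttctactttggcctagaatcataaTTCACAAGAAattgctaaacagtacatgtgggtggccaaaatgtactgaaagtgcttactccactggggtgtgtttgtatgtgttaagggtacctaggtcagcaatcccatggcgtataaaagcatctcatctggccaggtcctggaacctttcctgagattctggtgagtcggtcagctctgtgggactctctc

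Chil3, chr3:106167515-106167814, minus strand: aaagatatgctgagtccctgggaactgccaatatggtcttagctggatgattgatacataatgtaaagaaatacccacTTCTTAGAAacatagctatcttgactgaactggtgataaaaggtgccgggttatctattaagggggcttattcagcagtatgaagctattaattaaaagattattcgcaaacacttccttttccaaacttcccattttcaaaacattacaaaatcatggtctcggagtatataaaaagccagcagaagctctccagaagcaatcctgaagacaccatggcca

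GATAA lay 29 bases before the RefSeq start of Ccr3 and 13 bases into the transcript of Siglecf, and 6 of the 10 windows of the 8 genes held it, against 25.4% of the 32851 promoter windows of the table. TTCNNNNGAA was found in the Retnla window, 145 bases before the start, and in 1 window of Il33, against 6.95% of all windows. TTCNNNGAA was found in the Chil3 window, 172 bases before the start, against 8.3% of all windows. The windows of Il4ra and Il13ra1 held none of the 3 motifs. These matches describe letters in the windows and were not tested for binding.

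The eosinophil receptors were highest in the d6 tumors and fell as untreated tumors grew. Ccr3 on mouse chromosome 9 (GRCm38, 124021972 to 124031689) encodes the eotaxin receptor of eosinophils. Its level was 23.6, 20.8 and 20.4 CPM in the 3 d6 tumors. It was 8.44, 10.4, 3.43, 4.71 and 3.98 CPM in untreated d10 replicates 1 to 5, and 1.80, 1.07 and 0.524 CPM in the untreated d14 tumors. No tumor of one day overlapped a tumor of another, and the group mean at d6 was 19.1 times that at d14. In anti CTLA-4 treated tumors Ccr3 was 2.40, 1.49 and 2.12 CPM on d10 and 3.78, 2.18 and 2.11 CPM on d14. The treated d10 tumors lay below every untreated d10 tumor, and the treated d14 tumors above every untreated d14 tumor.

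Siglecf on mouse chromosome 7 (43351341 to 43359531) encodes an inhibitory sialic acid receptor of eosinophils and alveolar macrophages. Its level was 4.54, 4.62 and 6.28 CPM at d6, then 2.59, 3.25, 1.43, 1.64 and 1.27 CPM in untreated d10 tumors and 0.767, 0.516 and 0.584 CPM in untreated d14 tumors. The order of the days was that of Ccr3, again without overlap, with an 8.27-fold difference of the group means between d6 and d14. Treated tumors held 0.932, 0.803 and 0.840 CPM on d10 and 1.62, 1.15 and 0.775 CPM on d14. The treated d14 tumors lay just above the untreated d14 tumors, of which the highest was at 0.767 CPM.

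The eotaxins were also highest at d6. Ccl24 (eotaxin-2) on mouse chromosome 5 (135569937 to 135573049) is a chemokine of alternatively activated macrophages that acts through CCR3. Its level was 164, 131 and 99.5 CPM at d6 and 79.7, 84.8, 39.3, 13.7 and 18.6 CPM in untreated d10 replicates 1 to 5. In untreated d14 tumors it was 10.2, 8.05 and 2.89 CPM, so that the 3 days did not overlap. In treated tumors it was 14.3, 17.1 and 28.6 CPM on d10 and 17.7, 20.4 and 10.5 CPM on d14. The treated d10 values overlapped those of untreated d10 replicates 4 and 5 and lay below those of replicates 1 to 3.

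Ccl11 (eotaxin-1) on mouse chromosome 11 (82057823 to 82062955) is made mainly by fibroblasts, epithelium and endothelium. Its level was 19.4, 10.5 and 14.2 CPM at d6, then 8.75, 11.6, 5.86, 5.76 and 3.03 CPM in untreated d10 tumors and 1.56, 1.96 and 1.26 CPM in untreated d14 tumors. The d6 and d10 tumors overlapped, whereas each untreated d14 tumor was below each earlier one. Treated tumors held 3.79, 3.20 and 3.97 CPM on d10 and 5.20, 5.15 and 3.35 CPM on d14.

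Retnla changed more than any other of the 10 genes, by 1044-fold between its highest and its lowest library. Retnla on mouse chromosome 16 (48842551 to 48844461) encodes RELMα, a secreted product of macrophages exposed to IL-4 or IL-13 and of peritoneal macrophages. Its level was 42.0, 22.4 and 24.1 CPM at d6 and 7.18, 10.7, 1.81, 0.982 and 1.18 CPM in untreated d10 replicates 1 to 5. In untreated d14 tumors it was 0.363, 0.103 and 0.0403 CPM, from 27, 8 and 4 counts. Treated d10 tumors held 0.549, 0.920 and 2.04 CPM. Treated d14 tumors held 5.13, 0.217 and 1.03 CPM, from 521, 20 and 93 counts, and the second of them lay below the highest untreated d14 tumor.

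Chil3 did not follow Retnla. Chil3 on mouse chromosome 3 (106147554 to 106167564) encodes the chitinase-like protein Ym1 of macrophages and neutrophils, and part of its reads could be shared with its close copy Chil4, which reached at most 1.04 CPM. Chil3 was at 25.9, 11.6 and 9.98 CPM at d6, then at 88.7, 186, 18.2, 14.6 and 24.4 CPM in untreated d10 tumors and at 36.6, 4.44 and 4.12 CPM in untreated d14 tumors. It was at 39.6, 43.8 and 104 CPM in treated d10 tumors and at 61.2, 73.2 and 29.3 CPM in treated d14 tumors. Whole groups overlapped in Chil3 between the days of untreated tumors, between the treated groups, and between treated and untreated tumors of the same day. At d10, 2 tumors, untreated d10 replicates 1 and 2, held most of its mean in untreated mice.

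The alarmin Il33 changed least. Il33 on mouse chromosome 19 (29925114 to 29960718) lay between 108 and 197 CPM in the 17 libraries, a 1.82-fold range, with group means of 134 ± 14.5 CPM at d6, 161 ± 28.1 at d10 and 147 ± 40.5 at d14 in untreated tumors and of 145 ± 4.06 and 129 ± 14.4 in treated d10 and d14 tumors. Its receptor Il1rl1, on mouse chromosome 1 (40429570 to 40465415), was at 8.79, 8.08 and 8.14 CPM at d6 and at 6.38, 7.22, 5.37, 4.76 and 4.19 CPM in untreated d10 tumors. Il1rl1 was at 4.66, 3.06 and 3.13 CPM in untreated d14 tumors, at 4.86, 3.43 and 4.26 CPM in treated d10 tumors and at 9.35, 6.94 and 6.55 CPM in treated d14 tumors. Treated d14 tumors overlapped the d6 tumors, and untreated d14 and treated d10 tumors overlapped each other at the lowest levels.

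The receptor chains for IL-4 and IL-13 were not highest at d6. Il4ra on mouse chromosome 7 (125552120 to 125579474) encodes the chain shared by the IL-4 and IL-13 receptors, and it was at 86.8, 103 and 91.5 CPM at d6 and at 159, 197, 123, 172 and 166 CPM in untreated d10 tumors. It was at 137, 131 and 121 CPM in untreated d14 tumors, at 148, 156 and 166 CPM in treated d10 tumors and at 239, 219 and 194 CPM in treated d14 tumors. The d6 tumors were the lowest of the 5 groups and the treated d14 tumors had the highest mean, with 1 of the 3 just under the highest untreated d10 tumor. Il13ra1 on the X chromosome (36112110 to 36171259) encodes the chain that binds IL-13 beside IL-4Rα, and its group means were 56.5 ± 4.86, 77.2 ± 18.4 and 54.4 ± 5.88 CPM in untreated d6, d10 and d14 tumors and 65.3 ± 1.64 and 86.2 ± 9.88 CPM in treated d10 and d14 tumors. An antisense gene that overlaps Il4ra, Gm44876, had 33 counts in all libraries together.

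**Figure D2:**
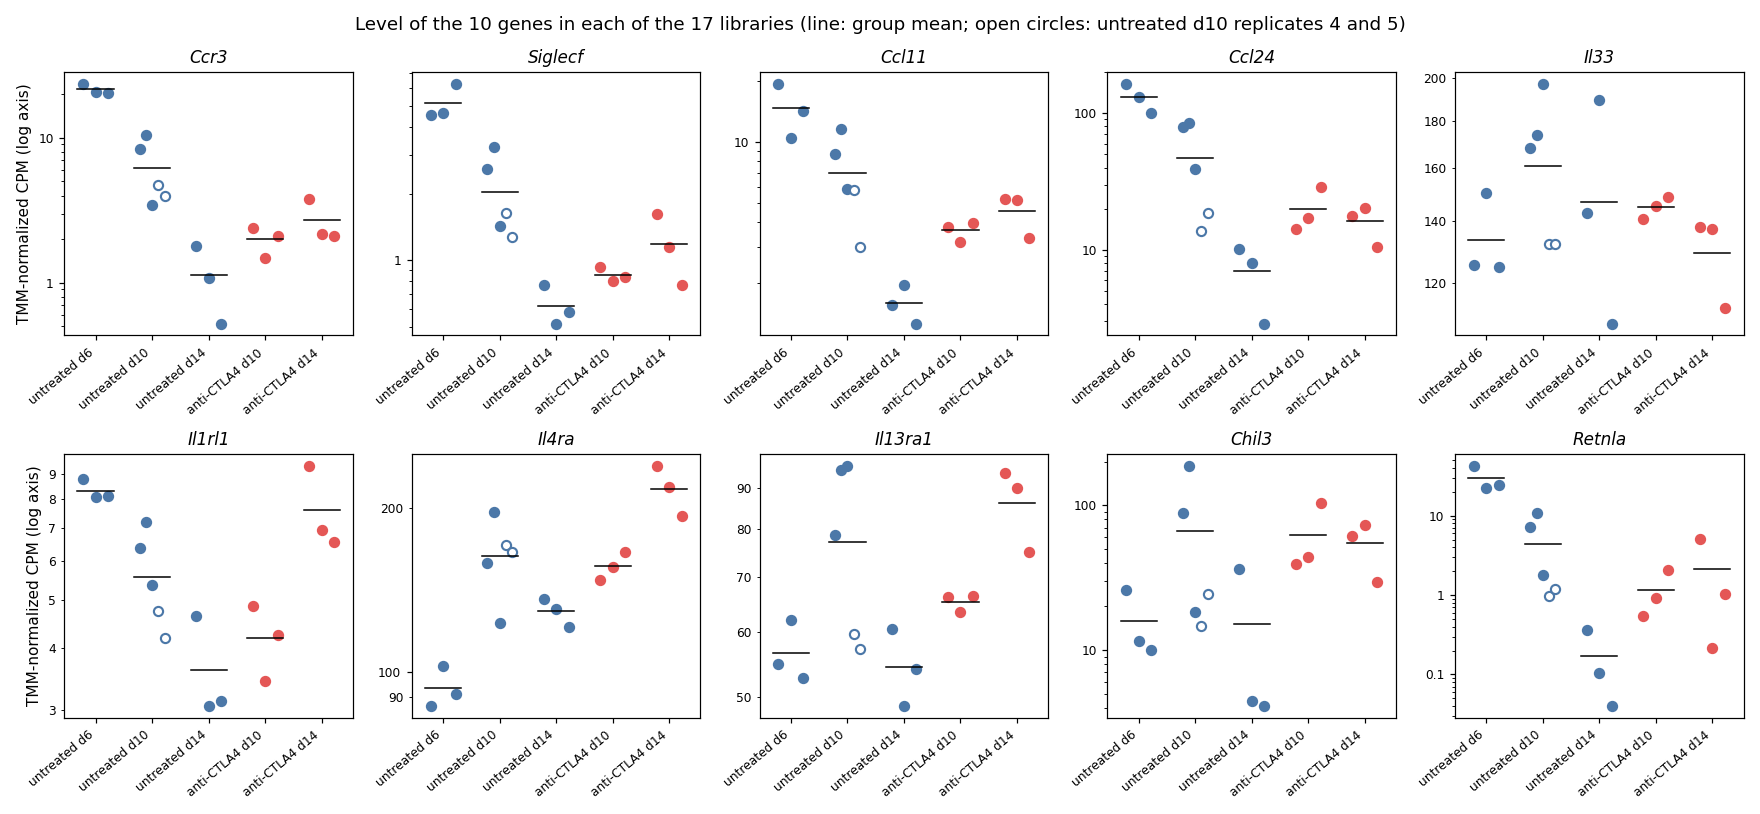
TMM-normalized CPM of the 10 genes in each of the 17 libraries, on log axes that differ between panels, with blue points for untreated and red points for treated tumors, a line at the group mean and open circles for untreated d10 replicates 4 and 5. Ccr3, Siglecf, Ccl11, Ccl24 and Retnla step down from d6 to d14 in untreated tumors, and their treated d14 tumors have a higher mean than the untreated d14 tumors.

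Growth of untreated tumors was compared first. Between d6 and d14, 6 of the 10 genes were called lower, and none was called higher. A gene was called at an adjusted p below 0.05 and a change of more than 2-fold (edgeR, quasi-likelihood). Of all 17172 genes tested, 8.81% were called lower. Retnla fell by 7.51 ± 0.54 on the log2 scale (SE, adjusted p = 3.68e-05), Ccr3 by 4.25 ± 0.37 (adjusted p = 6.81e-05) and Ccl24 by 4.21 ± 0.42 (adjusted p = 0.000109). Ccl11 fell by 3.19 ± 0.27 (adjusted p = 6.16e-05), Siglecf by 3.03 ± 0.25 (adjusted p = 5.25e-05) and Il1rl1 by 1.19 ± 0.20 (adjusted p = 0.00127). Il4ra was higher at d14 with a log2 fold change of 0.49 ± 0.09 (adjusted p = 0.00195), which is under 2-fold. Il33 (0.16 ± 0.18, adjusted p = 0.488), Il13ra1 (-0.04 ± 0.10, adjusted p = 0.792) and Chil3 (-0.06 ± 0.78, adjusted p = 0.955) did not pass, and without TMM the values of Il13ra1 and Chil3 were 0.048 and 0.016. Without untreated d14 replicate 1, the d14 tumor with the most Chil3, Chil3 was called lower (-1.86, adjusted p = 0.00736). Every tumor of d6 lies in another library set than every tumor of d14.

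Part of this difference was present at d10. Between d6 and d10, 3 of the 10 genes were called lower, against 2.66% of all 16866 genes tested. Retnla fell by 2.74 ± 0.72 (adjusted p = 0.0276), Ccr3 by 1.78 ± 0.33 (adjusted p = 0.0061) and Siglecf by 1.32 ± 0.31 (adjusted p = 0.0182). Ccl24 (-1.46 ± 0.53, adjusted p = 0.0867) and Ccl11 (-1.05 ± 0.36, adjusted p = 0.0732) did not pass in edgeR. DESeq2 called 4 of the 10 genes, with Ccl11 added (-1.07, adjusted p = 0.02), and 1 fit of all 5 groups called both Ccl11 (adjusted p = 0.018) and Ccl24 (adjusted p = 0.0374). Il4ra was higher with a log2 fold change of 0.83 ± 0.14 (adjusted p = 0.00447). The call of Retnla was lost without any single d6 tumor (adjusted p between 0.0587 and 0.115), and that of Siglecf without d6 replicate 1 (adjusted p = 0.0539) or 3 (adjusted p = 0.0876). Ccl11 was called lower without d10 replicate 2 (-1.32, adjusted p = 0.0358).

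Within the first library set, where d6 was compared with untreated d10 replicates 1 to 3, the same 3 genes were called lower, against 3.05% of all genes tested. The log2 fold changes were -2.14 ± 0.48 for Retnla, -1.52 ± 0.31 for Ccr3 and -1.06 ± 0.28 for Siglecf. Chil3 was called higher there (2.65 ± 0.67, adjusted p = 0.0177), and Ccl24 (-0.93 ± 0.26, adjusted p = 0.0263) and Il13ra1 (0.69 ± 0.11, adjusted p = 0.00164) differed by less than 2-fold. Against untreated d10 replicates 4 and 5 the falls were larger, at 4.76 ± 0.34 for Retnla, 3.01 ± 0.23 for Ccl24 and 2.30 ± 0.14 for Ccr3, and Chil3 was at 0.31 ± 0.40 (adjusted p = 0.541). The 2 untreated d10 tumors that stand apart thus had less Retnla and Ccl24 than the other 3, and their library set cannot be told apart from their tumors.

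Between d10 and d14, 5 of the 10 genes were called lower, against 3.45% of all 17659 genes tested. Retnla fell by 4.71 ± 1.10 (adjusted p = 0.0193), Ccl24 fell by 2.74 ± 0.69 (adjusted p = 0.0249), Ccr3 by 2.45 ± 0.51 (adjusted p = 0.0131), Ccl11 by 2.13 ± 0.40 (adjusted p = 0.0101) and Siglecf by 1.70 ± 0.36 (adjusted p = 0.0144). With untreated d10 replicates 4 and 5 alone, Ccl24 was at -1.21 ± 0.48 (adjusted p = 0.0913), and the other 4 were still called lower, against 3.62% of all genes tested. The untreated d10 tumors serve in both steps, so the 2 changes are not independent. Without untreated d14 replicate 2, 1 of the 10 genes was called lower, Ccl11, against 0.733% of all genes tested. The call of Ccl24 was also lost without untreated d10 replicate 1 or 2 or untreated d14 replicate 1 or 3, and that of Retnla without untreated d14 replicate 3 (adjusted p = 0.0593).

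The effect of anti CTLA-4 was compared on each day. On d10 no member was called, at 0 of 10 in edgeR, against 0.0174% of the 17258 genes tested. Without adjustment, 3 of the 10 were at a p below 0.05 in edgeR, against 2329 of the 17258 genes. DESeq2 called 2 of the 10, Ccr3 and Siglecf, both lower in treated tumors, against 223 of the 17258 genes. The edgeR log2 fold changes were -1.62 ± 0.39 for Ccr3 (adjusted p = 0.203) and -1.24 ± 0.34 for Siglecf (adjusted p = 0.227). Against untreated d10 replicates 1 to 3, which lie in another library set, Ccr3 (-1.88 ± 0.36), Siglecf (-1.49 ± 0.29), Ccl11 (-1.25 ± 0.22), Ccl24 (-1.76 ± 0.31) and Retnla (-2.49 ± 0.61) were called lower, against 4.85% of all genes tested. Within the second library set, against replicates 4 and 5, none of the 10 was called, and 0.561% of all genes were. Ccr3 was there at -1.12 ± 0.23 (adjusted p = 0.0838), Ccl24 at 0.30 ± 0.28 (adjusted p = 0.565), Chil3 at 1.67 ± 0.44 (adjusted p = 0.128) and Retnla at 0.10 ± 0.50 (adjusted p = 0.927). The sign of the difference for Ccl24, Retnla and Chil3 on d10 therefore depended on which untreated tumors were used. So did that of Il13ra1 (-0.45 with replicates 1 to 3, 0.15 with replicates 4 and 5) and of Il33 (-0.30 and 0.12).

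**Figure D3:**
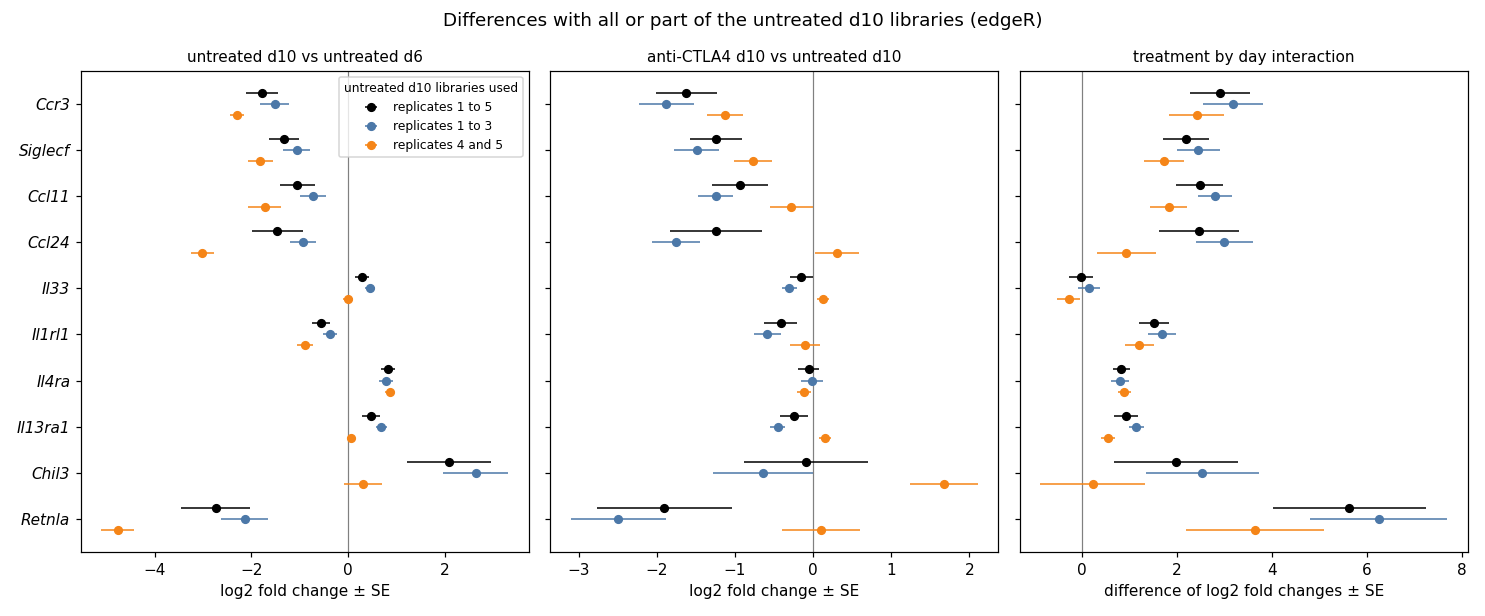
Log2 fold change ± SE of the 10 genes with all 5 untreated d10 libraries (black), with replicates 1 to 3 (blue) or with replicates 4 and 5 (orange), for 3 comparisons that use these libraries. On d10 the orange points of Ccl24, Retnla, Chil3, Il33 and Il13ra1 lie above 0 and their black and blue points below 0. Ccr3 and Siglecf keep 1 direction in each panel.

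On d14, where all tumors belong to 1 library set, every gene but Il33 had a higher mean in treated tumors. The call was made for 3 of the 10 genes, against 9.07% of the 18062 genes tested that were called higher. Retnla was higher by 3.74 ± 1.18 on the log2 scale (adjusted p = 0.0446), Ccl11 by 1.56 ± 0.25 (adjusted p = 0.00656) and Il1rl1 by 1.11 ± 0.23 (adjusted p = 0.0119). Il4ra (0.78 ± 0.10, adjusted p = 0.00484) and Il13ra1 (0.70 ± 0.12, adjusted p = 0.00777) differed by less than 2-fold. Ccr3 (1.29 ± 0.45, adjusted p = 0.0591), Siglecf (0.96 ± 0.32, adjusted p = 0.0548), Ccl24 (1.24 ± 0.44, adjusted p = 0.0617) and Chil3 (1.89 ± 0.83, adjusted p = 0.114) did not pass in edgeR, although the treated and untreated tumors did not overlap for the first 3. Ccr3 was called higher by DESeq2 (1.29, adjusted p = 0.00908), with all 5 groups in 1 fit (1.26, adjusted p = 0.0441) and after thinning (1.44, adjusted p = 0.0293). Il33 was at -0.15 ± 0.19 (adjusted p = 0.566). Without untreated replicate 1, Ccr3 (1.81, adjusted p = 0.0399) and Chil3 (3.71, adjusted p = 0.0196) were called higher, and without treated replicate 3 so was Siglecf (1.23, adjusted p = 0.0309).

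The call of Retnla on d14 was lost when any of 5 of the 6 tumors was left out, with adjusted p between 0.0573 and 0.174, and its log2 fold change was 1.97 without treated replicate 1. That tumor, and treated replicate 3, also held pancreas acinar RNA. The summed level of the 6 acinar genes Cpa1, Cela1, Cel, Prss2, Ctrb1 and Pnlip was 3053, 3.90 and 1038 CPM in treated d14 replicates 1 to 3 and at most 2.45 CPM in every other library, and Retnla in these replicates was 5.13, 0.217 and 1.03 CPM. Its part in the level of Retnla was not tested. The calls of Il1rl1 were lost without untreated replicate 2 (0.99, adjusted p = 0.0298) and without treated replicate 1 (0.95, adjusted p = 0.0422), in both cases by falling under 2-fold.

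The effect of treatment differed between the d10 and the d14 tumors. The injection days of the d10 treated mice are not given, so day and course of injections cannot be told apart here. In the test of the difference itself, the treatment effect on d14 minus that on d10, 5 of the 10 genes were called with a positive value, against 9.67% of the 18574 genes tested. The differences were 5.63 ± 1.61 for Retnla (adjusted p = 0.0277), 2.90 ± 0.64 for Ccr3 (adjusted p = 0.00935), 2.48 ± 0.50 for Ccl11 (adjusted p = 0.00628), 2.19 ± 0.49 for Siglecf (adjusted p = 0.0101) and 1.51 ± 0.32 for Il1rl1 (adjusted p = 0.00791). Il13ra1 (0.93 ± 0.25, adjusted p = 0.0202) and Il4ra (0.83 ± 0.18, adjusted p = 0.00957) differed by less than 2-fold, and Ccl24 (2.46 ± 0.84, adjusted p = 0.0579), Chil3 (1.97 ± 1.30, adjusted p = 0.319) and Il33 (-0.01 ± 0.25, adjusted p = 0.977) did not pass in edgeR. Ccl24 was called by DESeq2 (2.44, adjusted p = 0.0395), with all 5 groups in 1 fit (adjusted p = 0.0398) and with all genes of at least 1 count (adjusted p = 0.0312). With untreated d10 replicates 4 and 5 alone, each treatment effect is taken within a library set, and Ccr3 (2.41 ± 0.57, adjusted p = 0.0141), Siglecf (1.72 ± 0.42, adjusted p = 0.0151), Ccl11 (1.82 ± 0.39, adjusted p = 0.0106) and Il1rl1 (1.21 ± 0.31, adjusted p = 0.0192) were still called, against 9.31% of all genes tested that were called with a positive value. Retnla was then at 3.63 ± 1.45 (adjusted p = 0.0873). The call of Retnla was also lost without treated d10 replicate 1 or 2, untreated d14 replicate 2 or 3 or treated d14 replicate 1 (adjusted p between 0.0615 and 0.109). Ccl24 was called without untreated d10 replicate 4 or 5, and Il13ra1 without untreated d10 replicate 4 or 5 or untreated d14 replicate 1. This test uses the same tumors as the comparisons by day, so it is not a separate observation. For Ccr3, the change from d10 to d14 was -2.45 ± 0.51 in untreated and 0.44 ± 0.27 (adjusted p = 0.204) in treated tumors. Between treated d10 and treated d14 tumors none of the 10 was called by edgeR or by DESeq2, whereas edgeR called 11.5% of the 17791 genes tested. At an unadjusted p below 0.05 were 3 of the 10, against 9766 of the 17791 genes. These 3 were Il1rl1 (0.88 ± 0.18, adjusted p = 0.00457), Il4ra (0.49 ± 0.09, adjusted p = 0.00335) and Il13ra1 (0.42 ± 0.10, adjusted p = 0.00831), all higher at d14 and all under 2-fold.

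Treated d14 tumors were also set beside untreated d10 tumors. Of the 10 genes, Ccr3 was called lower (-1.23 ± 0.40, adjusted p = 0.0455), against 2.49% of the 18057 genes tested, and the 2 groups overlapped. This call was lost without untreated d10 replicate 1 or 2 or without any of the 3 treated tumors (adjusted p between 0.0535 and 0.17), and with untreated d10 replicates 4 and 5 alone the difference was -0.72 ± 0.29 (adjusted p = 0.083). It was also lost with library size without TMM (-1.10, adjusted p = 0.0699) and among protein coding genes only (-1.17, adjusted p = 0.0523). Against replicates 4 and 5, Chil3 alone of the 10 was called higher (1.45, adjusted p = 0.0274), as were 1776 of the 18460 genes tested. Against replicates 1 to 3, Ccl24 (-2.09 ± 0.30, adjusted p = 0.000654), Ccr3 (-1.49 ± 0.38, adjusted p = 0.0108) and Siglecf (-1.06 ± 0.34, adjusted p = 0.0297) were called lower, against 5.64% of all genes tested.

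**Figure D4:**
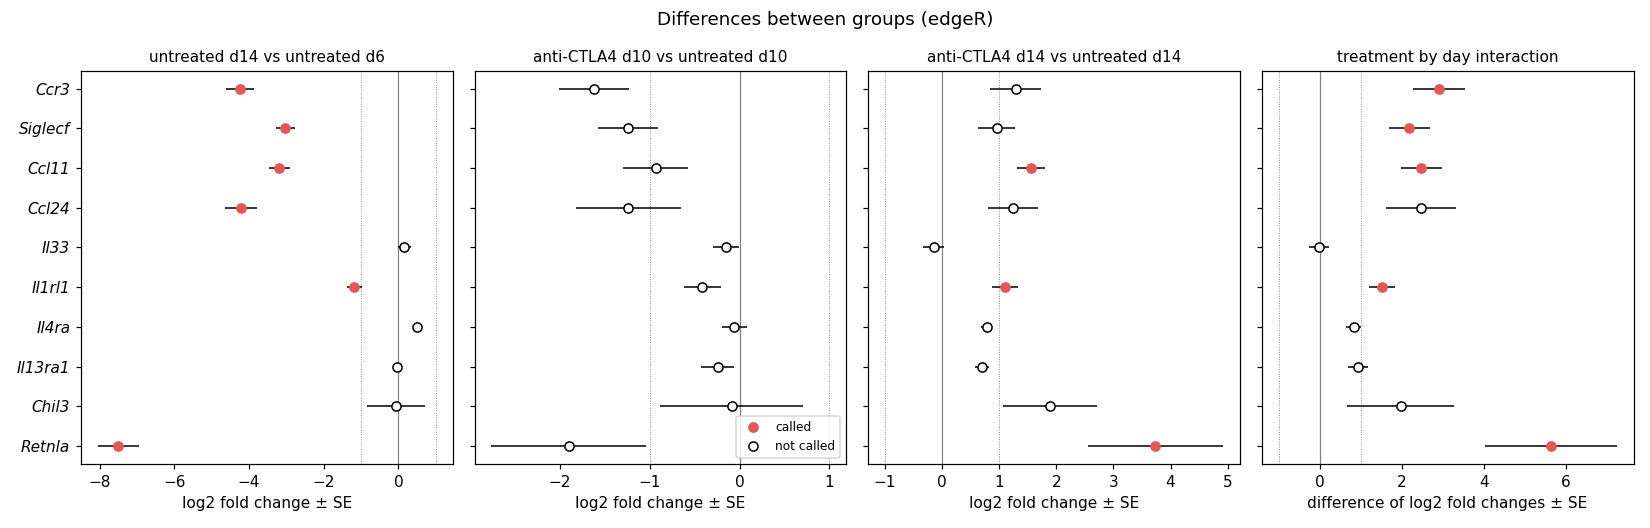
Log2 fold change ± SE of the 10 genes between untreated d14 and d6 tumors, between treated and untreated tumors on d10 and on d14, and the difference of the last 2 (treatment by day). Filled red points passed an adjusted p of 0.05 and a fold change of 2, dotted lines mark a log2 fold change of -1 and 1, and Il33 lies near 0 in all 4 panels.

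The granule genes Epx and Prg2 varied more between the d6 tumors, relative to their means, than Ccr3 did. Epx, the eosinophil peroxidase, was at 0.0222, 0.504 and 1.21 CPM in the d6 tumors, from 1, 25 and 60 counts. Prg2, the major basic protein, was at 0.512, 1.69 and 4.33 CPM in the same tumors, and Il5ra, the IL-5 receptor of eosinophils, at 1.96, 1.63 and 2.77 CPM. The d6 tumor with 23.6 CPM of Ccr3, the most of all libraries, thus had 1 count of Epx, so granule genes and Ccr3 did not rank the d6 tumors alike. In untreated d14 tumors Epx had 1, 2 and 1 counts, Prg2 was between 0.129 and 0.262 CPM and Il5ra between 0.0942 and 0.232 CPM. In treated d14 tumors Epx was at 0.453, 0.314 and 0.354 CPM, Prg2 at 1.80, 1.02 and 0.918 CPM and Il5ra at 0.709, 0.314 and 0.520 CPM, each above all 3 untreated d14 tumors. The untreated d10 tumors held 0.0465 to 0.409 CPM of Epx, 0.190 to 1.98 CPM of Prg2 and 0.268 to 0.867 CPM of Il5ra, and the treated d10 tumors 0.0434 to 0.146, 0.246 to 0.943 and 0.117 to 0.232 CPM.

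Of 12 other eosinophil genes, 5 of the 8 tested were called lower and 1 higher between untreated d6 and d14. Those lower were led by Ear6, an eosinophil-associated ribonuclease (at least 36.8-fold lower, against a floor of 3 counts per d14 tumor), Ear2 (log2 fold change -4.28 ± 0.30), Il5ra (-3.78 ± 0.39) and Prg2 (-3.39 ± 0.70), with adjusted p between 3.33e-05 and 0.00357. The gene that rose was Inpp5j (1.81 ± 0.45, adjusted p = 0.00882), an inositol phosphatase that is the only marker of the eosinophil score of the study. On d14, 7 of the 9 tested were called higher in treated tumors and none lower. Epx was at least 10.3-fold higher (adjusted p = 0.00365) against a floor of 3 counts per untreated tumor, and Prg2 (2.64 ± 0.39), Ear2 (1.81 ± 0.34) and Il5ra (1.80 ± 0.44) followed, with adjusted p between 0.00578 and 0.0203. The median log2 fold change was 1.65 over these 9 genes, 1.17 over the 10 members and -0.0043 over all genes tested. In the treatment by day difference 8 of 10 tested eosinophil genes were called positive, against 9.67% of the 18574 genes tested. This was not particular to eosinophil genes. Also called positive were 6 of 6 fibroblast, 5 of 5 tested adipocyte, 6 of 7 monocyte and macrophage and 5 of 6 T cell markers. Fewer were called among mast cell and basophil (2 of 10) and endothelial (1 of 6) markers.

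The type 2 cytokines were low, with their highest means at d6. Il13 was at 3.54, 2.64 and 2.37 CPM at d6, between 0.298 and 1.21 CPM in untreated d10 tumors and at 0.309, 0.129 and 0.0403 CPM in untreated d14 tumors. It was between 0.311 and 0.550 CPM in treated d10 tumors and at 1.18, 0.834 and 0.609 CPM in treated d14 tumors. Il4 was between 0.645 and 0.778 CPM at d6, between 0.117 and 0.310 CPM in untreated d10 tumors and at most 0.0985 CPM in the other 9 tumors, from 1 to 10 counts. Il5 was between 0.283 and 0.623 CPM at d6, between 0.0298 and 0.418 CPM in untreated d10 tumors and at most 0.162 CPM in the other 9, with no count in 1 untreated d14 tumor. Between d6 and untreated d14, 6 of 7 tested cytokines and alarmins were called lower, among them Il3 (at least 8.51-fold lower, with the same floor), Il13 (-4.18 ± 0.55, adjusted p = 0.000373), Il4 (-3.97 ± 0.36, adjusted p = 7.32e-05) and Il5 (-3.71 ± 0.70, adjusted p = 0.00227). The remaining tested gene, Areg, was not called and went the other way, with a mean of 40.5 CPM at d6 and 70.2 CPM at untreated d14. Areg had the highest level of this list, and the median summed level of the list was 51.3 CPM at d6 and 74.4 CPM at untreated d14. On d14, Il13 was called higher (2.53 ± 0.59, adjusted p = 0.0174) and Tslp, an epithelial alarmin, lower (-1.13 ± 0.33, adjusted p = 0.033) in treated tumors, while Il4, Il5, Il3, Il9 and Il25 were too low to be tested there.

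**Figure D5:**
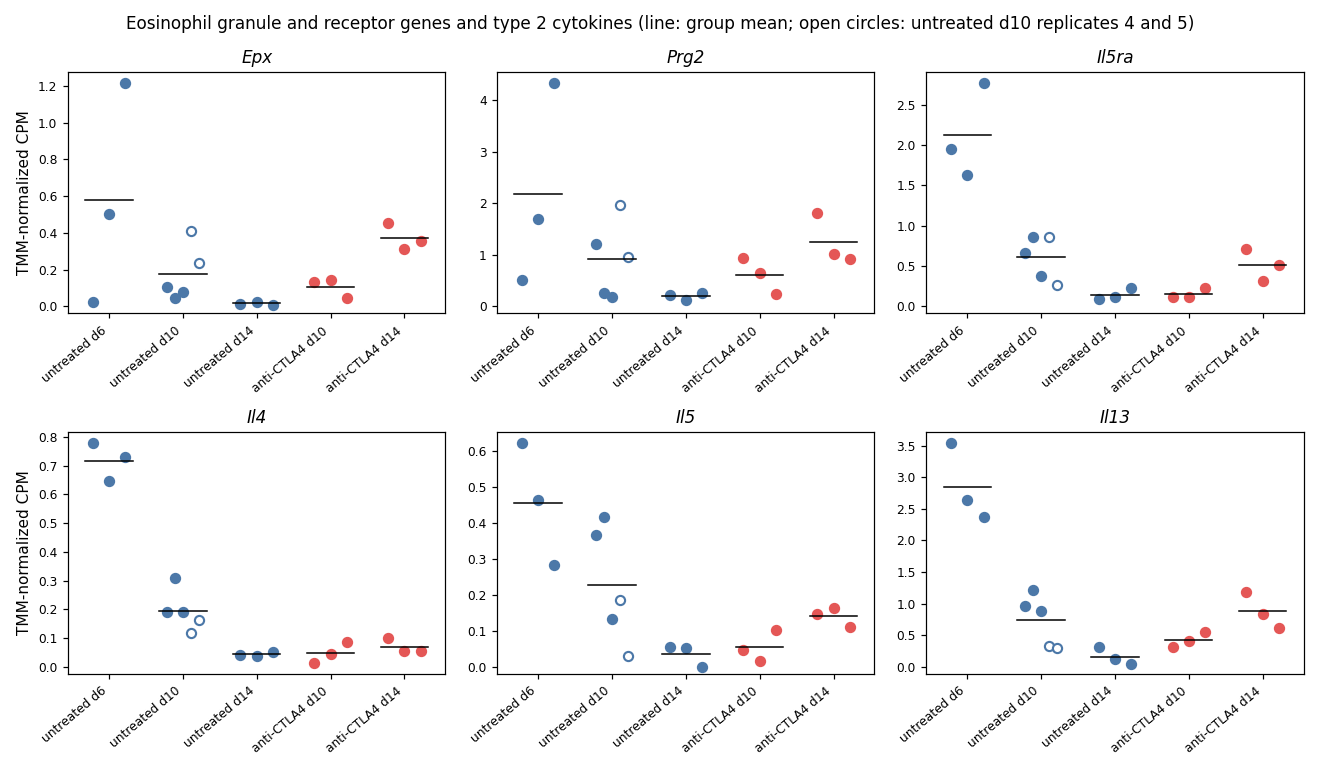
TMM-normalized CPM of Epx, Prg2, Il5ra, Il4, Il5 and Il13 in each library, on linear axes that differ between panels, with blue points for untreated and red points for treated tumors, a line at the group mean and open circles for untreated d10 replicates 4 and 5. Il4 and Il13 are highest in all 3 d6 tumors, Epx and Prg2 are spread widely among them, and the treated d14 tumors lie above the untreated d14 tumors in every panel.

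Other genes of the response were split. Of 12 receptor and signaling genes, 11 were tested, and between d6 and untreated d14 only Il2rg, the common cytokine receptor chain, was called lower (-1.52 ± 0.15, adjusted p = 0.000109), while none of the 11 was called between treated and untreated d14 tumors. Of 9 other CCR3 ligands and type 2 chemokine genes, 4 were called lower and 2 higher between d6 and untreated d14. Ccr4 (-3.52 ± 0.44), a receptor of type 2 and regulatory T cells, and its ligands Ccl17 (-3.38 ± 0.40) and Ccl22 (-2.45 ± 0.22) were among those that fell. In treated d14 tumors Ccr4 (2.49 ± 0.40, adjusted p = 0.00656) and Ccl22 (1.54 ± 0.25, adjusted p = 0.00673) were the 2 called higher. Of 9 tested genes that IL-4 and IL-13 induce in macrophages, Mgl2 (-3.35 ± 0.40), Il4i1 (-1.61 ± 0.19) and Clec10a (-1.54 ± 0.18) were called lower between d6 and untreated d14. In treated d14 tumors 4 of 9 were called higher, which were Pdcd1lg2 (1.62 ± 0.29), Arg1 (1.43 ± 0.20), Irf4 (1.38 ± 0.32) and Il4i1 (1.26 ± 0.16), with adjusted p between 0.00485 and 0.0161. Of 10 mast cell and basophil genes none was called between treated and untreated d14 tumors, and between d6 and untreated d14 Tpsb2, a mast cell tryptase, was called higher (1.10 ± 0.34) and Cd200r3, a basophil and mast cell receptor, lower (-1.25 ± 0.33).

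Markers of other cell types moved with these groups, and their part in the levels of the 10 genes was not tested. The summed level of 8 markers of resident peritoneal macrophages, cells that express Retnla, was 532 to 739 CPM at d6, 77.9 to 273 CPM in untreated d10 tumors and 50.1 to 85.5 CPM in untreated d14 tumors, and 6 of the 8 were called lower between d6 and d14. In treated d14 tumors this sum was 87.9 to 122 CPM and none of the 8 was called against untreated d14 tumors. The sum of 7 monocyte and macrophage markers was 1127 to 2172 CPM in untreated and 3314 to 4002 CPM in treated d14 tumors, with 5 of 7 called higher. The sum of 6 fibroblast markers was 1295 to 2283 CPM in untreated and 2846 to 4345 CPM in treated d14 tumors, with 5 of 6 called higher, and that of 8 neutrophil markers was 147 to 174 and 338 to 429 CPM, with 4 of 8 called higher. The sum of the mesothelial and mesothelioma markers was 2005 to 2042 CPM in untreated and 1360 to 1532 CPM in treated d14 tumors, while of the 6 tested, 2, Lrrn4 and Wt1, were called higher in treated tumors and none lower, with a median log2 fold change of 0.55. On d14, 3 of 6 T cell, 3 of 4 tested regulatory T cell, 1 of 6 endothelial and 1 of 5 tested adipocyte markers were also called higher in treated tumors. Adipocyte markers summed to 28.2 to 84.7 CPM at d6 and to 14.5 to 23.9 CPM in untreated d14 tumors.

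The genes with the most similar profile over the 17 libraries were found for the 3 members with the largest spread, by the root mean square difference of centred log2(CPM + 0.5) among 13338 genes. For Retnla they were Retnlg (0.72), its neutrophil relative, Alox15 (0.80), the lipoxygenase of resident peritoneal macrophages and eosinophils, and Ccr3 (0.81). For Ccl24 they were Mgl2 (0.38), a lectin of alternatively activated macrophages and dendritic cells, Gm15056 (0.50) and Retnlg (0.52). For Chil3 the nearest were Mmp9 (0.85), Saa3 (0.99) and F7, at larger differences than for Ccl24. Alox15 was at 224 to 346 CPM at d6 and at most 35.1 CPM in every later tumor.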

How the data were processed

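RNA of 17 AB12 tumors was sequenced by the authors from KAPA RNA HyperPrep libraries, aligned to GRCm38 with TopHat2 2.0.14, restricted to uniquely mapped reads and counted with HTSeq on Gencode vM21. The values deposited by the authors are raw counts per gene, whole numbers without normalization, and whether counting used strand is not given in the sources used here. Groups and replicate numbers came from the sample labels. Across 22 replicate pairs the chi-square statistic per gene was at least 18.5, so no pair agreed within sampling noise.

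The 10 genes, the 16 lists of 128 other genes and the tests were chosen with earlier results of these data known. Counts were tested in R 4.3.3 with edgeR 4.0.16 (filterByExpr, TMM, quasi-likelihood, only the groups compared), and a call needed a Benjamini-Hochberg adjusted p under 0.05 together with a change beyond 1 on the log2 scale in either direction. SE were derived from the fold change and its F statistic. The code was tested on simulated data. CPM are TMM-normalized over 17 libraries, and per-kilobase values use the length of all exons. The floor was 3 counts per library, and a fold against a group that never exceeded it is a lower bound. All 10 members and, in every group, Epx, Prg2, Il5ra, Il4, Il5 and Il13 are named. Of each list, up to 4 called genes with the largest fold change are named, except 1 gene not reported here, and further genes were named after their values were seen. Alternatives were DESeq2 1.42.0, library size without TMM, other filters, 1 fit of all groups, thinning to 46371577 counts, protein coding genes only, a replicate block, leaving out each replicate, and part of the untreated d10 tumors. The authors' removal of batch genes was not repeated.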

Additional observations from a re-analysis of the deposited data

Results flagged for a closer look

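In the test of the difference itself, the treatment effect differed between d10 and d14 for 7 of the 10 genes. The threshold was an adjusted p below 0.05 at any fold change (edgeR), which 17.7% of all genes tested passed. Day and course of injections cannot be told apart in this test. The difference, d14 minus d10 on the log2 scale, was 5.63 for Retnla, 2.90 for Ccr3, 2.48 for Ccl11, 2.19 for Siglecf, 1.51 for Il1rl1, 0.93 for Il13ra1 and 0.83 for Il4ra. With untreated d10 replicates 4 and 5 as the only d10 controls, the value was 3.63 for Retnla (adjusted p = 0.0873), 0.54 for Il13ra1 (adjusted p = 0.0242) and 0.89 for Il4ra (adjusted p = 0.00436).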

How the results depend on the processing

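The number of the 10 genes called moved with the processing and with the tumors used, as did the number called among all genes tested. The latter is given in parentheses. Between d6 and untreated d10 the number was 3 (1257 of 16866). It was 5 with all genes of at least 1 count (1278 of 31640) and with all 5 groups in 1 fit (1679 of 18843). With untreated d10 replicates 4 and 5 it was also 5 (2794 of 16736). For treated against untreated d10 tumors it was 2 with DESeq2 (223 of 17258), in place of 0 (3 of 17258). With untreated d10 replicates 1 to 3 it was 5 (1152 of 16963). For treated against untreated d14 tumors it was 6 with all genes of at least 1 count (2355 of 32369). It was 4 with DESeq2 (1956 of 18062), in place of 3 (2072 of 18062). For treatment by day it was 6 with DESeq2 (2504 of 18574), in place of 5 (2196 of 18574). It was 7 with untreated d10 replicates 1 to 3 (3172 of 18488) and 4 with replicates 4 and 5 (2466 of 19253). For treated d14 against untreated d10 tumors it was 1 (1414 of 18057). It was 0 with library size without TMM (1586 of 18057) or with protein coding genes only (778 of 14515). It was 2 with all 5 groups (1918 of 18843) and 3 with untreated d10 replicates 1 to 3 (2271 of 17853). Leaving out 1 tumor at a time also moved both numbers, with the range over all genes in parentheses. It gave 1 to 4 calls for d10 against d6 (810 to 1377), 1 to 5 for untreated d14 against d10 (281 to 1528) and 6 to 7 for d14 against d6 (3117 to 3437). There were 1 to 4 for treatment on d14 (1172 to 2851), 0 to 2 for treated d14 against untreated d10 (588 to 1790) and 4 to 7 for treatment by day (1315 to 2598). Treatment on d10 (0 to 115) and the treated groups (1617 to 2471) gave 0 in every case. The cause of these changes was not tested.

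The replicate numbers did not pair the tumors, since the correlation of deviations exceeded 0.1 in 9 of 30 same-numbered pairs. In comparisons that use untreated d10 tumors, the replicate block by its construction leaves out untreated d10 replicates 4 and 5. There it gave 5 calls for treatment on d10 (over all genes 1210 of 17258), 7 for treatment by day (3052 of 18574) and 3 for treated d14 against untreated d10 (2361 of 18057). Treatment on d14 uses no d10 tumor, and there the block, which sets same-numbered tumors side by side, gave 6 (1702 of 18062). The block put Il13ra1 at -0.089 in treated d14 against untreated d10 and Il33 at 0.16 in treatment by day.

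Signs turned for some values, of which several were close to 0 and others were not. In treatment on d10 with all untreated d10 tumors, Ccl24 was at -1.24 and Retnla at -1.90. With untreated d10 replicates 4 and 5 alone, treatment on d10 gave 0.30 for Ccl24, 0.12 for Il33, 0.15 for Il13ra1, 1.67 for Chil3 and 0.10 for Retnla, treated d14 against untreated d10 gave 0.030 for Ccl11, 1.45 for Chil3 and 0.95 for Retnla, and untreated d14 against d10 gave 0.14 for Il33. With replicates 1 to 3, Il13ra1 was at -0.087 in treated d14 against untreated d10 and Il33 at 0.15 in treatment by day. Between d14 and d6, library size without TMM gave 0.048 for Il13ra1 and 0.016 for Chil3, and all genes with at least 1 count gave 0.018 for Il13ra1. Il33 in treatment by day was 0.038 with library size without TMM, 0.0020 with at least 10 counts in every library and 0.010 after thinning.

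Without 1 tumor, Il33 lay between -0.36 and 0.053 (untreated d14 against d10), -0.062 and 0.36 (d14 against d6), -0.30 and 0.056 (treatment on d14) and -0.21 and 0.19 (treatment by day). Chil3 lay between -1.86 and 0.50 (d14 against d6), -0.67 and 0.79 (treatment on d10), -0.44 and 0.38 (treated groups) and -0.58 and 0.54 (treated d14 against untreated d10). Il13ra1 lay between -0.11 and 0.042 (d14 against d6), Il4ra between -0.14 and 0.020 (treatment on d10), and among the treated groups Ccl24 between -0.50 and 0.038 and Retnla between -0.90 and 1.54.

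Over all genes, treatment on d10 gave 3 calls, all higher, against 223 with DESeq2 (58 higher), 77 with all 5 groups, 40 with all genes of at least 1 count, 0 with library size without TMM, 1210 with the replicate block and 96 with untreated d10 replicates 4 and 5. Between d6 and d10, 1257 genes were called, and 2794 with replicates 4 and 5. Between untreated d10 and d14, 1277 were called, 821 with at least 10 counts in every library, 707 among protein coding genes, 2001 with all 5 groups and 281 without untreated d14 replicate 2. Library size without TMM moved the median log2 fold change of all genes from -0.03 to 0.11 for treated d14 against untreated d10, with 1304 of 1586 calls higher against 964 of 1414. The lowest counts, those of Retnla and Epx in untreated d14 tumors, limit any fold change against that group.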
